A study of Mus musculus with 55 samples.

Results

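Potassium channel genes were taken as every gene whose mouse symbol starts with Kcn, without the antisense transcripts of these loci. This rule, which used no measured value, gave 93 of the 29684 genes with a symbol in the count tables. They comprised 17 pore subunits of the voltage-gated Kv1 to Kv4 channels (Kcna, Kcnb, Kcnc and Kcnd), 10 electrically silent Kv subunits (Kcnf, Kcng, Kcns and Kcnv), 5 Kv7 subunits (Kcnq), 8 EAG, ERG and ELK subunits (Kcnh), 8 subunits of the calcium- and sodium-activated group (Kcnma1, Kcnn, Kcnt and their relative Kcnu1, which responds to pH and voltage), 15 inward rectifiers (Kcnj), 13 tandem-pore leak channels (Kcnk) and 17 auxiliary subunits (Kcnab, Kcne, Kcnip, Kcnmb and Kcnrg). Of these, 62 had enough counts to be tested in at least 1 of the 2 experiments. The remaining 31 were not tested, with no more than 50 counts in any sample. Pooled over the comparisons, 49 of the 62 were called changed at least once. The share of all genes called at least once was not computed, and single comparisons called up to 33.1% of all genes.

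The study grew primary neurons from the cortex and hippocampus of CD1 mouse embryos of mixed sex, taken at embryonic day 16 to 17.5 by the sample labels, and measured RNA by CEL-Seq2, which counts the 3′ ends of polyadenylated transcripts. In the maturation experiment, cultures at 7 days in vitro (7DIV) and mature cultures (called 21DIV, with 23 days in the sample titles) were left unstimulated (basal) or given 55 mM KCl, or 50 µM bicuculline together with 2.5 mM 4-aminopyridine (Bic + 4-AP), for 15 or 180 min. In the stimuli experiment, 21DIV cultures were basal, or received 55 mM KCl or 50 µM bicuculline alone (Bic) for 15, 45 or 180 min, or were silenced with 1 µM tetrodotoxin for 48 h (basal TTX) and then sampled 15, 45 or 180 min after it was washed out (TTXw). Groups held 2 to 4 samples, and the 2 experiments held 28 and 27. Nothing in the sample descriptions says that replicates came from separate cultures, so the p-values measure the spread between these samples, which may be technical.

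Potassium channels let potassium leave the cell along its gradient, and so set the resting potential, shape the spike and limit repetitive firing. Kv channels open on depolarisation, Kv7 channels carry the M-current, calcium-activated channels follow calcium entry, and inward rectifiers and leak channels act near rest. The silent Kv subunits form channels only together with Kv2 subunits, and auxiliary subunits change the gating and trafficking of the pores. The treatments act on this system directly: raised external KCl depolarises the membrane, 4-aminopyridine blocks voltage-gated potassium channels, bicuculline blocks GABA-A receptors, and tetrodotoxin blocks the sodium channels of the spike.

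Counts per sample, summed over the 1 transcript kept for each gene with a symbol, were 1659722 to 4474968 at 7DIV (15 samples). They were 1784170 to 14012872 at 21DIV in the maturation experiment (13 samples) and 1177500 to 3909487 in the stimuli experiment (27 samples). Levels are given as CPM (counts scaled to a common library size) with TMM scaling. Since 1 end was counted per transcript, CPM does not grow with transcript length, and levels of different genes are compared on that scale. Neuron markers were high in all groups, and these were mixed cultures: the sum of 10 astrocyte markers was 717 to 1030 CPM in basal 7DIV samples and 5255 to 6373 CPM in basal 21DIV samples, while the sum of 7 neuron markers was 3718 to 4022 and 4178 to 5209 CPM. The microglial gene Tmem119 and the endothelial gene Cldn5 were at 0 in all samples. The 12 samples exposed to TTX stood apart from the other 15 samples of the stimuli experiment in the log2 ratio of Xist to Y-linked transcripts (1.29 to 2.21 against 0.45 to 1.23), so TTX exposure and the sex mix of the cultures cannot be told apart in the comparison of basal TTX with basal. At 7DIV the ratio also stood clear of the basal group (0.25 to 1.21) in KCl at 180 min (-0.14 to 0.17) and in Bic + 4-AP at 15 min (1.29 to 1.57). In the stimuli experiment it stood clear of basal (0.94 to 1.23) in KCl at 15 min (0.48 to 0.52) and 180 min (0.55 and 0.80) and in Bic at 15 min (0.49 to 0.63). The TTXw samples at 45 min (1.31 and 1.54) lay below those of basal TTX (1.67 to 2.21).

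In basal 7DIV cultures the highest level was that of Kcna1, the Kv1.1 subunit of axonal delayed rectifiers, at 345 ± 94.2 CPM (SD, n = 3). It was followed by Kcnj3, a subunit of G-protein-gated inward rectifiers, at 124 ± 16.1 CPM and by Kcnd2, the Kv4.2 subunit of dendritic A-type current, at 104 ± 13.4 CPM. The samples of Kcna1 lay above all of Kcnj3, while the ranges of Kcnj3 and Kcnd2 overlapped. In basal 21DIV cultures of the maturation experiment Kcna1 still led with 360 ± 22.3 CPM, followed by the calcium-binding auxiliary subunit Kcnip3 with 226 ± 12.8 CPM and the inward rectifier Kcnj4 with 216 ± 44.1 CPM, of which the last pair overlapped. In the stimuli experiment, whose table was scaled separately, the basal order was Kcnj3 with 361 ± 24.0 CPM, Kcna1 with 338 ± 34.7, Kcnc2 with 160 ± 19.8 and Kcnj4 with 152 ± 18.7.

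The comparison of basal cultures asked how the transcriptome changes as neurons mature. Of 56 Kcn genes tested, 26 rose and 2 fell from 7DIV to 21DIV, where a call needed 1.5-fold or more and an adjusted p below 0.05. Over all 10510 genes tested, 33.1% were called, 18.2% as higher and 14.9% as lower. The median log2 fold change was 0.78 over the Kcn genes and 0.01 over all genes. The summed level of all Kcn genes was 1893 to 2137 CPM in the 7DIV samples and 3252 to 3873 CPM in the 21DIV samples, which did not overlap.

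Of the auxiliary subunits, 6 of 10 tested were higher. Kcnab1, a Kvβ subunit that speeds inactivation of Kv1 channels, was at 1.42, 4.29 and 1.63 CPM at 7DIV and at 31.99, 37.4 and 33.2 CPM at 21DIV, a log2 fold change of 3.97 ± 0.35 (SE, adjusted p = 1.23e-06). Kcnip3 was at 36.9, 29.4 and 27.6 CPM and then at 239, 214 and 226 CPM, a rise of 2.89 ± 0.16 (adjusted p = 2.52e-08). For both genes every 21DIV sample lay far above every 7DIV sample. Kcnip2, a partner of Kv4 pores, rose by 2.72 ± 0.22, Kcnab2 by 2.17 ± 0.23, Kcnab3 by 1.32 and Kcnip1 by 0.70, whereas Kcnip4 was not called (0.18). The Kcn genes whose log2 CPM followed Kcnab1 most closely over the 28 samples of the maturation experiment were Kcnip3 (Pearson r = 0.934), Kcnk1 (0.917) and Kcnq3 (0.895). These samples fall into the 2 stages, and within the 13 mature samples the same r values were -0.249, -0.161 and -0.008.

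Among inward rectifiers, 5 of 8 tested rose and 1 fell. Kcnj10, the Kir4.1 channel of astrocytes, was at 18.5, 11.7 and 22.8 CPM at 7DIV and at 88.4, 205 and 137 CPM at 21DIV (log2 fold change 2.99 ± 0.30, adjusted p = 4.87e-06), and Kcnj16, its partner Kir5.1, rose by 1.48 ± 0.39. Kcnj9, Kcnj4 and the KATP pore Kcnj11 rose by 2.45 ± 0.54, 1.77 ± 0.19 and 1.36. The opposite course was seen for Kcnj2, the Kir2.1 channel that holds the resting potential, at 14.2, 6.75 and 17.9 CPM and then at 1.21, 2.32 and 2.32 CPM (-2.71 ± 0.45, adjusted p = 3.61e-04). Kcnj3 was not called (-0.09), and Kcnj6 was under the count minimum of this comparison.

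Of the Kv1 to Kv4 pores, 6 of 13 rose and 1 fell. The rises included Kcnc4 (2.27 ± 0.27), Kcnc2 (1.93 ± 0.20), Kcna2 (1.75 ± 0.28), Kcnb2 (0.99) and Kcnd3 (0.63). Kcnc2, the Kv3.2 subunit of fast-spiking neurons, was at 27.9, 26.99 and 31.7 CPM at 7DIV and at 134, 81.7 and 111 CPM at 21DIV. Kcnd2 fell, from 111, 88.9 and 113 CPM to 42.9, 49.5 and 39.1 CPM (-1.23 ± 0.17, adjusted p = 6.13e-05), while the Kv4 subunit Kcnd3 rose and Kcnd1 was not called (0.61). Kcna1 was at 447, 328 and 261 CPM and then at 376, 335 and 371 CPM, with a log2 fold change of 0.09 ± 0.17, and Kcna4 (0.25) and Kcnc1 (0.53) were not called either.

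The silent subunits gave 3 rises among 4 tested: Kcnv1, at 6.16, 14.7 and 14.9 CPM and then at 57.4, 107 and 95.9 CPM (2.87 ± 0.31, adjusted p = 7.15e-06), Kcns3 (2.74 ± 0.78) and Kcnf1 (0.62). Kcnk1, the TWIK1 leak channel, was the only tandem-pore gene of 6 tested to be called, at 40.3, 27.6 and 40.9 CPM and then at 161, 137 and 192 CPM (2.18 ± 0.19), with Kcnk2 at 0.46 and Kcnk9 at 0.16. Among Kv7 subunits Kcnq3 (1.86 ± 0.24) rose, while Kcnq5 was at -0.44 and was not called. Kcnh3 (1.17 ± 0.18), Kcnh1 (0.83), the sodium-activated Kcnt1 (1.66 ± 0.55) and the small-conductance calcium-activated Kcnn2 (1.54 ± 0.27) rose, and the large-conductance Kcnma1 was not called (0.33).

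**Figure D1:**
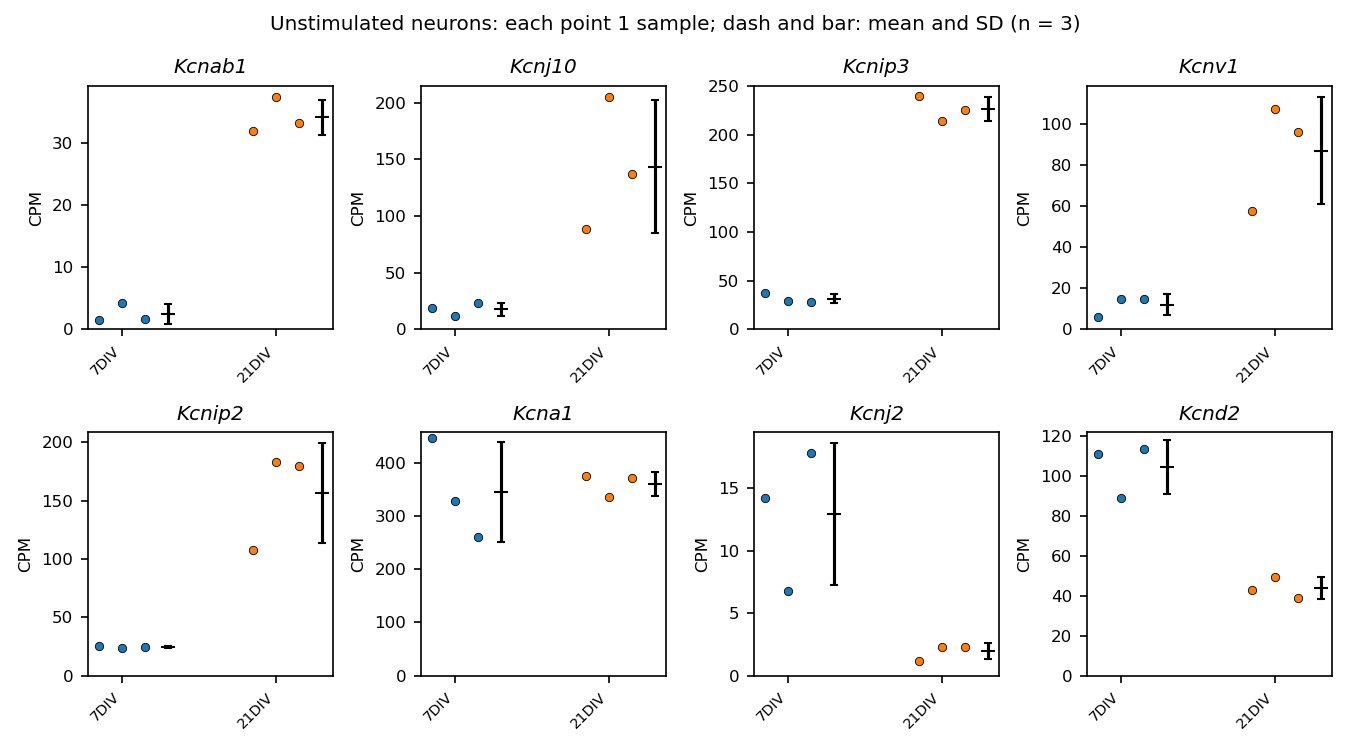
Levels of 8 potassium channel genes in basal 7DIV and 21DIV cultures (CPM, linear axes from 0), with 1 point per sample and the mean and SD (n = 3) beside them. Kcnab1, Kcnj10, Kcnip3, Kcnv1 and Kcnip2 lie higher in all 3 mature samples, Kcnj2 and Kcnd2 lie lower in all 3, and the groups of Kcna1 overlap.

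The makeup of the cultures moved with the same contrast. The log2 ratio of the marker sums, 21DIV to 7DIV, was 0.30 for neurons and 2.79 for astrocytes. Of the 7 neuron markers 4 were called higher and 3 lower, so their sum joins changes in both directions. Of the others tested, 9 of 10 astrocyte markers and 8 of 8 oligodendrocyte-lineage markers were called higher. A call needed 1.5-fold or more, which lies beyond the ratio of the neuron sum, so all 26 rises had to exceed it. The ratio of the astrocyte sum was exceeded by 4 of them. In bulk samples such as these, a change in the share of cells of a type and a change in RNA per cell cannot be told apart. The part of glia in the rises was not tested.

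Of 26 genes that act with potassium channels or build the potassium gradient, 23 were tested in this comparison, with 8 higher and 4 lower (33.1% of all genes called). Slc12a5 (KCC2, the neuronal chloride exporter driven by potassium) rose by 2.05 and Slc12a2 (NKCC1, which imports chloride) fell by 1.54 on the log2 scale. The sodium-potassium pump subunit Atp1b2 rose by 0.92, Dpp10, a partner of Kv4 pores, by 1.67, and the secreted Kv1 partners Lgi3 and Lgi1 by 3.61 and 1.37.

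The 250 bases upstream of the RefSeq start (GRCm38.p6, which has the coordinates of mm10) are shown for 4 genes on which the results turn. Kcnip2 rose with maturation and fell with both stimuli in mature cultures of that experiment. Kcnj10 was called in 6 comparisons of a treatment or stage with its baseline. Kcnk1 rose with Bic and KCl in the stimuli experiment only and fell after TTX washout, and Kcnj4 fell in TTX. Capitals mark TGACG, the core of the binding sequence of the activity-dependent factor CREB. The windows are chr19:45816064-45816313 on the minus strand for Kcnip2, chr1:172340960-172341209 on the plus strand for Kcnj10, chr8:125994852-125995101 on the plus strand for Kcnk1, and chr15:79505242-79505491 on the minus strand for Kcnj4, each written 5′ to 3′ on the strand of the gene.
Kcnip2: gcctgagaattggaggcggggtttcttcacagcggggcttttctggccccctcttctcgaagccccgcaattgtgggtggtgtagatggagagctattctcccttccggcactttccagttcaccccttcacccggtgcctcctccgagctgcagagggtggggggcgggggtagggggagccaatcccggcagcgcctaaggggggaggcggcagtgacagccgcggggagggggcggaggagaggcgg
Kcnj10: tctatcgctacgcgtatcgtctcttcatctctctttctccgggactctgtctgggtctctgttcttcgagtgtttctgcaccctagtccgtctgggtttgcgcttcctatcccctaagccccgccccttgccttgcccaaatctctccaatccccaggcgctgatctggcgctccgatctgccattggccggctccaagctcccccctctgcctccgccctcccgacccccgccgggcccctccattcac
Kcnk1: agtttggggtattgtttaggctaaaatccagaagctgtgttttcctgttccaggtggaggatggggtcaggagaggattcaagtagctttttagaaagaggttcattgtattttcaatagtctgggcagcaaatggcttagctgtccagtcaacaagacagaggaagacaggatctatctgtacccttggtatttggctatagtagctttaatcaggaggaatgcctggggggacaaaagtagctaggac
Kcnj4: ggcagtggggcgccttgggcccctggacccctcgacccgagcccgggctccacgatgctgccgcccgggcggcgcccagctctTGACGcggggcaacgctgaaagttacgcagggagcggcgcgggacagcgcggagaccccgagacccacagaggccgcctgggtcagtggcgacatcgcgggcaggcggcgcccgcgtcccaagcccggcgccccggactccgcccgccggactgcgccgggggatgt
Both strands were searched, and TGACG stood in 1 of the 4 windows, that of Kcnj4, at position -167 from the start. It occurred in 17.8% of 32851 such windows over all genes and in 15 of the 93 windows of 68 Kcn genes. The palindrome TGACGTCA, which contains it, occurred in 1.55% of all windows and in 0 of the Kcn windows. Kcnj4 and Kcnip2 have GC-rich windows (77.2% and 66.8% GC), as does Kcnj10 (62%), whereas that of Kcnk1 has 44.4% GC and 0 CG pairs, against a median of 52.4% over all windows. These matches describe letters and not binding.

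Depolarisation with KCl was compared with the basal group of the same stage. In mature cultures of the maturation experiment 9 of 60 Kcn genes tested were called, all as lower, where 7.65% of 11746 genes were called, 3.52% as lower and 4.13% as higher. At 15 min the median log2 fold change was -0.37 over the Kcn genes and 0.00 over all genes, and 7 Kcn genes were called lower at that time alone (6.23% of all genes called in either direction). At 180 min 5 were lower and 1, Kcnq1 (3.26), was higher (4.89% of all genes), and the median of the Kcn genes was -0.26. Kcnq1 rested on 4, 18 and 38 counts at 180 min against 3, 0 and 6 in basal samples. It was not called over both times together.

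Kcnk9, the TASK3 acid-sensitive leak channel, was at 22.6, 25.04 and 15.4 CPM in basal samples, at 5.23, 7.39 and 5.34 CPM after 15 min and at 8.18, 8.94 and 7.32 CPM after 180 min. All 6 stimulated samples lay below all 3 basal samples, and the log2 fold change at 15 min was -1.83 ± 0.32 (adjusted p over both times 6.12e-04). Kcnip2 went from 107, 183 and 179 CPM to 47.8, 54.6 and 61.6 CPM at 15 min (-1.53 ± 0.29, adjusted p = 0.00122) and was at 117, 55.9 and 44.1 CPM at 180 min, when 1 sample was back in the basal range. Kcnh3, the Elk2 voltage-gated channel, went from 58.1, 66.0 and 70.0 CPM to 25.5, 24.8 and 29.005 CPM at 15 min (-1.29 ± 0.25, adjusted p = 0.00275) and to 60.7, 20.7 and 30.4 CPM at 180 min, again with 1 sample within the basal range. For both genes the 15 min samples lay wholly below the basal samples.

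Other falls with KCl were smaller or later. Kcnk10, the TREK2 leak channel, was at 11.1, 9.48 and 5.86 CPM in basal samples and at 4.09, 2.42 and 5.90 CPM after 180 min (-1.09 ± 0.31, adjusted p = 0.0467), so that the groups overlapped. The silent subunit Kcns2 (-0.91) and Kcnab2 (-0.74) had their largest fall at 180 min, and Kcnq5 (-0.70) and Kcnip4 (-0.65) at 15 min. The neuron marker sum was 3831 to 3959 CPM at 15 min, against 4178 to 5209 CPM in basal samples. The count of 9 went to 5 without basal replicate 2, without 15 min replicate 1 or without 15 min replicate 2. Kcnk10 was not called without basal replicate 1 or 2, or without replicate 1 or 2 of either KCl time (adjusted p from 0.0632 to 0.176), while Kcnk9, Kcnip2 and Kcnh3 were called in each of the 9 such fits.

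Bic + 4-AP in mature cultures called 13 of 60 Kcn genes lower and 1 higher, where 12.3% of all genes were called, 5.81% as lower and 6.5% as higher. At 15 min 0 Kcn genes were called by edgeR's quasi-likelihood test, with 2 at an unadjusted p under 0.05 and 0.0511% of all genes called. At 180 min alone 13 were lower and 2, Kcnq1 and Kcnh6 (1.77), were higher (14.2% of all genes), with a median log2 fold change of -0.28 over the Kcn genes and -0.02 over all. The falls took in 3 of 10 auxiliary subunits, 3 inward rectifiers and 2 EAG-type subunits.

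The inward rectifiers Kcnj16 and Kcnj10 had the largest falls. Kcnj16 was at 7.78, 19.1 and 17.2 CPM in basal samples, at 12.6 and 14.1 CPM after 15 min and at 1.11 and 2.44 CPM after 180 min (-3.10 ± 0.56). Kcnj10 was at 88.4, 205 and 137 CPM, at 143 and 144 CPM, and at 14.7 and 47.2 CPM (-2.24 ± 0.44). For both, the 180 min samples lay below all basal samples and the 15 min samples within their range. The astrocyte marker sum moved with them, at 1929 to 3806 CPM after 180 min against 5255 to 6373 CPM in basal samples (log2 ratio of means -1.04), with 4 astrocyte markers called lower. The sum of oligodendrocyte-lineage markers was 1025 to 1659 CPM against 2408 to 3170 CPM, with 3 of 8 tested called lower. The part of either shift in these falls was not tested. Without 180 min replicate 2 neither gene was called (Kcnj16 -2.58, adjusted p = 0.0824, and Kcnj10 -1.61, adjusted p = 0.129), and the count of 14 went to 5.

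Kcnh3 went from 58.1, 66.0 and 70.0 CPM to 11.4 and 18.2 CPM at 180 min (-2.15 ± 0.32), and its relative Kcnh4 from 3.46, 8.05 and 5.53 CPM to 1.47 and 1.09 CPM (-2.10 ± 0.62, adjusted p = 0.0493). Kcnip2 was at 35.002 and 41.5 CPM (-2.04), Kcnk9 at 6.26 and 5.97 CPM (-1.77), Kcns2 at 10.3 and 10.3 CPM (-1.75) and Kcnv1 at 28.6 and 29.6 CPM (-1.58), all below every basal sample. Kcnn2 (-1.41), Kcnab2 (-0.96), Kcnj3 (-0.76) and the BK auxiliary subunit Kcnmb4 (-0.66) also fell. The log2 ratio of the neuron marker sum was -0.33, a smaller change than the 1.5-fold that a call needed. Of the 13 falls, 10 exceeded the ratio of the astrocyte marker sum. The rise was in Kcnq1, the cardiac and epithelial Kv7 subunit, at 0.519, 0 and 0.664 CPM in basal samples and 8.29 and 8.41 CPM at 180 min (4.21 ± 0.98, adjusted p = 0.00268). It rested on 3, 0 and 6 counts against 45 and 31. Kcnh4 was not called without basal replicate 2 or 3 or without any 1 of the 4 Bic + 4-AP samples (adjusted p from 0.0551 to 0.266).

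**Figure D2:**
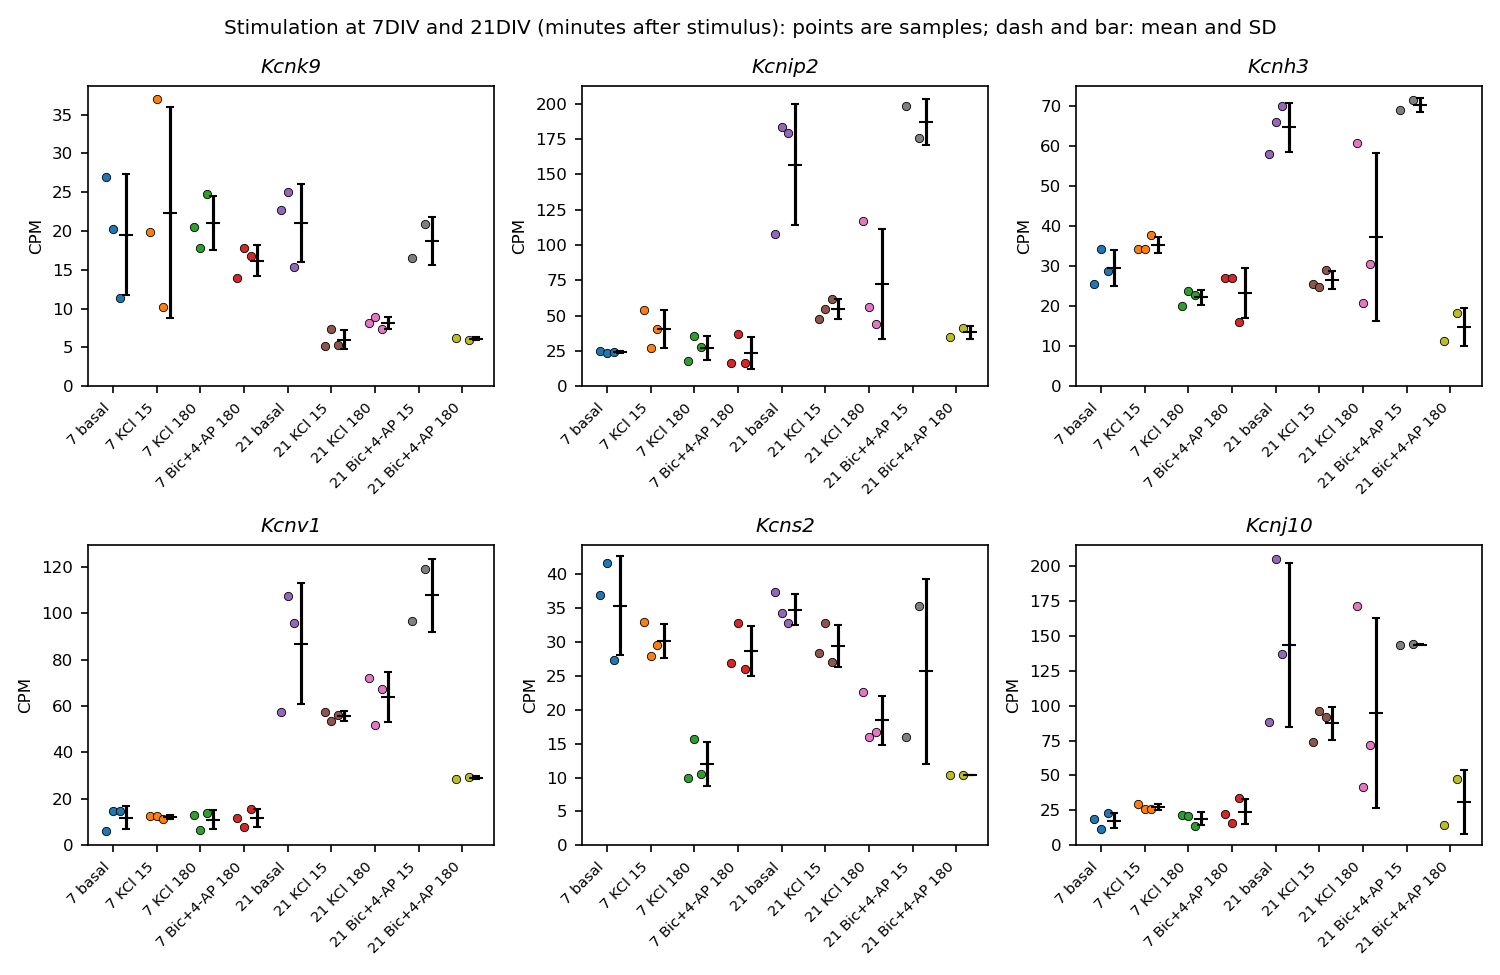
Levels of Kcnk9, Kcnip2, Kcnh3, Kcnv1, Kcns2 and Kcnj10 (CPM) in the groups of the maturation experiment named on the axis (stage, stimulus and minutes), with 1 point per sample and the mean and SD beside them. In mature cultures the KCl 15 min samples of Kcnk9, Kcnip2 and Kcnh3 lie below the basal samples, and so do the Bic + 4-AP samples at 180 min in all 6 panels.

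At 7DIV few genes of any kind were called with the same stimuli, and few Kcn genes. KCl called 2 of 60 lower, with 2.29% of all genes called, 1.01% as lower (1.98% at 180 min alone). Kcns2 was at 36.9, 41.7 and 27.4 CPM in basal samples, at 32.9, 27.97 and 29.5 CPM after 15 min and at 9.86, 15.7 and 10.515 CPM after 180 min (-1.54 ± 0.26, adjusted p = 8.67e-04), so the 180 min samples stood apart. Kcna1 was at 172, 273 and 212 CPM after 180 min, 1 of which lay within the basal range (-0.65 ± 0.16, adjusted p = 0.0416). Kcna1 was called in only 2 of the 9 fits that left out 1 sample: it was lost without basal replicate 2 or 3, any of the 3 samples at 15 min, or replicate 1 or 3 at 180 min (adjusted p from 0.0515 to 0.26). Bic + 4-AP called 0 Kcn genes by edgeR's quasi-likelihood test and 0 by DESeq2, with 3 at an unadjusted p under 0.05 and 0% of all genes called.

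The difference between the stages was tested directly as an interaction. For KCl, 4 of 60 Kcn genes were called, all with a more negative log2 fold change at 21DIV than at 7DIV (2.06% of all genes called in either direction, 1.07% as lower). Among the 4 were Kcnip2, Kcnk9 and Kcnh3, all with the largest difference at 15 min. The median difference at 15 min was -0.45 over the Kcn genes tested and -0.01 over all genes. For Bic + 4-AP, 6 were called, all with a more negative log2 fold change at 21DIV and the largest difference at 180 min: Kcnj10, Kcnip2, Kcnn2, Kcnh3, Kcnv1 and Kcns2. The median difference at 180 min was -0.30 over the Kcn genes tested and -0.02 over all genes. Over all genes 4.17% were called, 1.94% as lower and 2.23% as higher, with 0.00851% at 15 min alone and 4.95% at 180 min alone. At 7DIV, Kcnip2 was at 25.1, 23.3 and 24.4 CPM in basal samples and at 16.7, 36.8 and 16.8 CPM after 180 min of Bic + 4-AP, and Kcnj10 was at 22.5, 15.7 and 33.6 CPM against 18.5, 11.7 and 22.8 CPM in basal samples. Kcnn2 was at 23.6, 16.6 and 21.1 CPM at 7DIV after 180 min, against 19.4, 9.81 and 14.4 CPM in basal samples, and at 12.2 and 19.8 CPM at 21DIV against 30.6, 43.1 and 52.2 CPM. Both tests share the basal samples. Without Bic + 4-AP 180 min replicate 2 of the mature cultures the count of 6 went to 0. The count of 4 for KCl went to 1 without 21DIV basal replicate 2, and to 2 without 7DIV basal replicate 2 or 4, any of the 3 KCl 15 min samples at 7DIV, or KCl 15 min replicate 1 or 2 at 21DIV.

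The stimuli experiment repeated KCl in other mature cultures. Of 59 Kcn genes tested, 5 were higher and 1 lower (6.04% of all 12027 genes called, 3.89% as higher), mostly at 15 min, when 5 were higher and 2 lower (7.22% of all genes) and the median was 0.20. At 45 min 1 was higher, Kcnj10, and at 180 min 0 (0.765% of all genes at each time), with 11 at an unadjusted p under 0.05 at 180 min. Kcnj10 was at 58.7, 75.5 and 39.4 CPM in basal samples, at 154 and 144 CPM after 15 min, 157 and 124 CPM after 45 min, and 73.5 and 95.3 CPM after 180 min (1.36 ± 0.24 at 15 min). Kcnh3 was at 28.9, 34.2 and 30.3 CPM and at 50.4 and 76.4 CPM after 15 min (1.04 ± 0.25), Kcna4, an A-type Kv1 subunit, at 46.1, 56.6 and 49.3 CPM and at 80.4 and 89.1 CPM (0.75 ± 0.19), and Kcnk1 at 40.4, 56.6 and 53.4 CPM and at 74.8 and 83.2 CPM (0.67 ± 0.17). In each of these 4 genes both 15 min samples lay above all basal samples. Kcnq3 was called over the 3 times together, with its largest value, 0.66, at 180 min. Kcnu1, a BK-related subunit, was at 8.02, 8.93 and 9.86 CPM and at 2.03 and 4.05 CPM after 15 min (-1.48 ± 0.43).

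These calls were fragile. The count of 6 went to 1 without basal replicate 1 or without KCl 15 min replicate 2, and to 3 without basal replicate 5. Without either of the first 2 samples Kcna4, Kcnk1 and Kcnh3 were not called (adjusted p from 0.055 to 0.367), and Kcnh3 was also lost without basal replicate 2 or 5 (0.0623 and 0.11). Kcnu1 was called in 1 of the 9 fits, that without KCl 180 min replicate 1, with adjusted p from 0.0563 to 0.345 in the others, whereas Kcnj10 was called in each. The astrocyte marker sum was 2829 to 3405 CPM in basal samples and 5142 to 5154 CPM after 15 min of KCl, with 4 markers called higher. Of 8 oligodendrocyte-lineage markers tested, 3 were called higher and 2 lower over the 3 times together. The part of these shifts in the change of Kcnj10 was not tested. The neuron marker sum was 5398 to 5896 CPM at 15 min against 4433 to 4538 CPM in basal samples (log2 ratio of means 0.34), and the ratio was 0.35 for GABA neuron markers and 0.20 for the summed Kcn genes.

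The experiments share no sample, so their responses to KCl can be set side by side, without a test of the difference. At 15 min Kcnh3 was at -1.29 ± 0.25 in the maturation samples and at 1.04 ± 0.25 in the others, with basal levels of 58.1 to 70.0 and 28.9 to 34.2 CPM. Kcnk9 was at -1.83 ± 0.32 and 0.28 ± 0.33, and Kcnip2 at -1.53 ± 0.29 and 0.17 ± 0.16. Of the 9 genes called lower in the first, 8 had a value above 0 at 15 min in the second. Over the 57 Kcn genes tested in both, the sign was the same for 24, and over all 11289 shared genes for 47.3%. Pearson's r across genes at 15 min was -0.169 over the Kcn genes and -0.003 over all genes, and at 180 min 0.082 and 0.148. Genes are not independent replicates. The lack of a shared response at 15 min held over all genes and not for the Kcn genes alone, so how the 2 sets of KCl samples compare is in doubt, and each KCl value given here is that of its own experiment. The cause was not tested.

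Bic alone gave 5 Kcn genes higher and 1 lower (6.63% of all genes called, 4.08% as higher), with 3 higher at 15 min (3.42% of all genes), 8 higher and 1 lower at 45 min (7.45%), and 0 at 180 min (0.765%, with 8 Kcn genes at an unadjusted p under 0.05). The median of the Kcn genes at 45 min was 0.24. Kcnj10 was at 167 and 153 CPM after 15 min, at 152 and 111 CPM after 45 min and at 70.2 and 55.7 CPM after 180 min, against 39.4 to 75.5 CPM in basal samples (1.47 ± 0.24 at 15 min), so that it left the basal range and was back in it by 180 min. The silent subunit Kcnv1 was at 57.6, 70.0 and 50.4 CPM in basal samples and at 127 and 104 CPM after 45 min (0.96 ± 0.17). Kcnk1 was at 83.7 and 84.6 CPM after 15 min and 69.8 and 80.4 CPM after 45 min (0.75 ± 0.18), above all basal samples. The TASK1 leak channel Kcnk3 was at 46.1, 62.5 and 41.7 CPM in basal samples and at 82.5 and 84.5 CPM after 45 min (0.74 ± 0.17), and Kcnip1 rose by 0.64 at 45 min. Kcnu1 was at 4.36 and 2.88 CPM after 45 min (-1.32 ± 0.43) and was not called in any of the 9 fits that left out 1 sample (adjusted p from 0.0653 to 0.233). Kcnk3 was not called without basal replicate 1 or 5 or either 45 min sample (adjusted p from 0.0685 to 0.119). The astrocyte marker sum was 5570 to 6261 CPM after 45 min, with 6 markers called higher, and the neuron marker sum was 5268 to 5275 CPM against 4433 to 4538 CPM (log2 ratio of means 0.24, and 0.40 for GABA neuron markers). Of 8 oligodendrocyte-lineage markers tested, 4 were called higher over the 3 times together. The part of these marker shifts was not tested.

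Bic and KCl were then compared with each other at matched times. By edgeR's quasi-likelihood test 0 Kcn genes were called at 15, 45 or 180 min, and 0 by DESeq2. At an unadjusted p under 0.05 there were 2, 11 and 9, and 0%, 0.682% and 0.723% of all genes were called.

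Silencing with TTX for 48 h was compared with basal mature cultures. Of 59 Kcn genes tested, 7 were higher and 15 lower, with 21.6% of all genes called, 10.8% in each direction. The median log2 fold change was -0.20 over the Kcn genes and 0.00 over all genes. The falls came from all 8 families, and 2 of the 7 rises were inward rectifiers.

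Kcnf1, a silent partner of Kv2, was at 44.1, 57.7 and 55.0 CPM in basal samples and at 16.6, 11.0, 13.6 and 19.5 CPM in TTX (-1.73 ± 0.19). The inward rectifier Kcnj4, a Kir2.3 channel of forebrain neurons, was at 135, 148 and 172 CPM and at 35.3, 45.9, 63.7 and 57.9 CPM (-1.57 ± 0.14). The G-protein-gated Kcnj3 was at 358, 387 and 339 CPM and at 149, 135, 216 and 170 CPM (-1.11 ± 0.12), and Kcnk2, the mechanosensitive TREK1 leak channel, at 124, 146 and 148 CPM and at 59.2, 51.7, 67.2 and 66.2 CPM (-1.18 ± 0.14). In these 4 genes all TTX samples lay below all basal samples. Kcns1 was at 3.44, 5.95 and 6.07 CPM and at 1.33, 1.74, 2.15 and 2.17 CPM (-1.40 ± 0.49), and the ERG subunit Kcnh7 at 8.60, 6.33 and 9.10 CPM and at 2.66, 1.74, 4.29 and 4.34 CPM (-1.25 ± 0.39), both from low counts.

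The other falls included Kcnv1 (-1.08), Kcnk10 (-0.96), Kcna4 (-0.90), Kcng2 (-0.78), Kcnma1 (-0.77), Kcnip4 (-0.72), Kcnq3 (-0.65) and Kcnd2 (-0.65). Kcna1 was at -0.50 ± 0.12, under the 1.5-fold limit. The neuron marker sum was 4433 to 4538 CPM in basal and 3540 to 4135 CPM in TTX samples (log2 ratio of means -0.25). A call needed 1.5-fold or more, so all 15 falls had to exceed that ratio. Kcnh7 was lost without basal TTX replicate 2 (-1.04, adjusted p = 0.0574), and Kcns1 without basal TTX replicate 1 or 2 or basal replicate 2 or 5 (adjusted p from 0.057 to 0.0891).

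The largest rise was that of Kcnj10, at 166, 128, 212 and 201 CPM in TTX against 58.7, 75.5 and 39.4 CPM (1.61 ± 0.21), followed by Kcne1l, an auxiliary subunit of the KCNE family, at 27.9, 23.2, 20.7 and 12.7 CPM against 5.44, 7.07 and 9.48 CPM (1.499 ± 0.34). The sodium-activated Kcnt1 was at 7.98, 10.454, 12.2 and 9.76 CPM against 5.16, 4.09 and 2.65 CPM (1.30 ± 0.34) and Kcnj16 at 5.99, 6.97, 13.6 and 7.96 CPM against 3.44, 2.61 and 5.69 CPM (1.12 ± 0.38). In all 4 the groups did not overlap. Kcnip2 (0.87), Kcnd1 (0.68) and Kcnn2 (0.60) also rose. The astrocyte marker sum was 7907 to 9027 CPM in TTX against 2829 to 3405 CPM in basal samples (log2 ratio of means 1.46) with 10 of 10 markers called higher, and 2 of the 7 rises exceeded that ratio. The sum of oligodendrocyte-lineage markers was 2103 to 2173 CPM against 756 to 1201 CPM, with 5 of 8 tested called higher. The part of these shifts in the rises was not tested. Kcnj16 was lost without basal TTX replicate 3 or basal replicate 1 or 2 (adjusted p from 0.0897 to 0.109).

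Of the 24 partner genes tested, 5 were higher and 8 lower in TTX (21.6% of all genes called). The falls took in subunits of the hyperpolarisation-activated channels that carry the h-current, Hcn3 (-1.23) and Hcn2 (-0.77), the pump subunits Atp1b1 (-0.70) and Atp1b3 (-0.67), and Slc12a2 (-1.03). Lgi2 and Lgi1 fell by 1.97 and 0.59, and Lgi4 and Lgi3 rose by 2.06 and 1.63.

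Washout of TTX was compared with basal TTX to ask what follows the return of firing. Over the 3 times, 4 of 59 Kcn genes were higher and 17 lower, with 13.2% of all genes called, 6.78% as higher and 6.45% as lower. At 15 and 45 min 0 Kcn genes were called by edgeR's quasi-likelihood test (0% and 0.382% of all genes), with 3 and 8 at an unadjusted p under 0.05, and at 180 min 3 were higher and 16 lower (14% of all genes). The median at 180 min was -0.44 over the Kcn genes and 0.02 over all.

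The falls were led by the silent subunit Kcns2, at 31.3, 24.4, 37.9 and 25.7 CPM in basal TTX, between 27.6 and 33.7 CPM at 15 and 45 min, and at 7.20, 11.4 and 12.9 CPM at 180 min (-1.48 ± 0.27). Kcnf1 was at 9.81, 3.79 and 6.83 CPM at 180 min (-1.25 ± 0.29), Kcnq5, a Kv7 subunit of the M-current, at 20.9, 20.3 and 21.3 CPM against 51.2, 42.4, 57.9 and 41.6 CPM (-1.19 ± 0.18), and Kcnk1 at 22.2, 17.5 and 19.7 CPM against 32.6, 51.1, 46.5 and 43.4 CPM (-1.14 ± 0.20). The abundant Kcna1 was at 135, 91.8 and 128 CPM against 223, 247, 262 and 226 CPM (-1.03 ± 0.14), and Kcnc2 at 81.8, 71.9 and 107 CPM against 176, 213, 169 and 185 CPM (-1.11 ± 0.13). In these 6 genes all samples at 180 min lay below all basal TTX samples. Other falls were Kcnc4 (-1.04), Kcnv1 (-0.97), Kcnj3 (-0.96), Kcna4 (-0.91), Kcnab1 (-0.75), Kcnip4 (-0.72), Kcnma1 (-0.71), Kcnj4 (-0.71), Kcna2 (-0.66), Kcnq3 (-0.61), with Kcnh1 (-0.64) called over the 3 times together.

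The 4 rises were Kcnj16, at 9.81, 28.9 and 22.02 CPM at 180 min (1.28 ± 0.32), Kcnj10, at 278, 445 and 540 CPM (1.25 ± 0.19), Kcne1l, at 13.1, 41.2 and 50.1 CPM (0.76 ± 0.29, called over the 3 times together and not at 180 min alone), and Kcnk2, at 97.5, 81.4 and 121 CPM (0.69 ± 0.15). Kcnj10 and Kcnk2 lay above all basal TTX samples in all 3, whereas replicate 1 of Kcnj16 and of Kcne1l lay within the basal TTX range. Kcnk2 was at 51.7 to 67.2 CPM in basal TTX and at 124 to 148 CPM in basal cultures. Without 180 min replicate 2 the count of 21 went to 12, and Kcnf1 (-0.89, adjusted p = 0.217), Kcnj16 (0.88, adjusted p = 0.0989) and Kcne1l (0.59, adjusted p = 0.17) were not called. Without replicate 3, Kcne1l was not called (0.45, adjusted p = 0.209) and Kcnk2 was under 1.5-fold (0.53, adjusted p = 0.0156).

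Marker sums moved with this contrast too. At 180 min the sum of neuron markers was 2252 to 2775 CPM against 3540 to 4135 CPM in basal TTX, that of GABA neuron markers 1852 to 2590 against 4189 to 5816 CPM, and that of astrocyte markers 11384 to 15968 against 7907 to 9027 CPM. The log2 ratios of means were -0.61, -1.15 and 0.72. Of the 17 falls, 16 exceeded the neuron ratio, which lies near the 1.5-fold cutoff of a call. The GABA neuron ratio was exceeded by 3, namely Kcns2, Kcnf1 and Kcnq5, and 3 of the 4 rises exceeded the astrocyte ratio. Of 8 oligodendrocyte-lineage markers tested, 4 were called higher over the 3 times together. The part of these shifts was not tested.

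**Figure D3:**
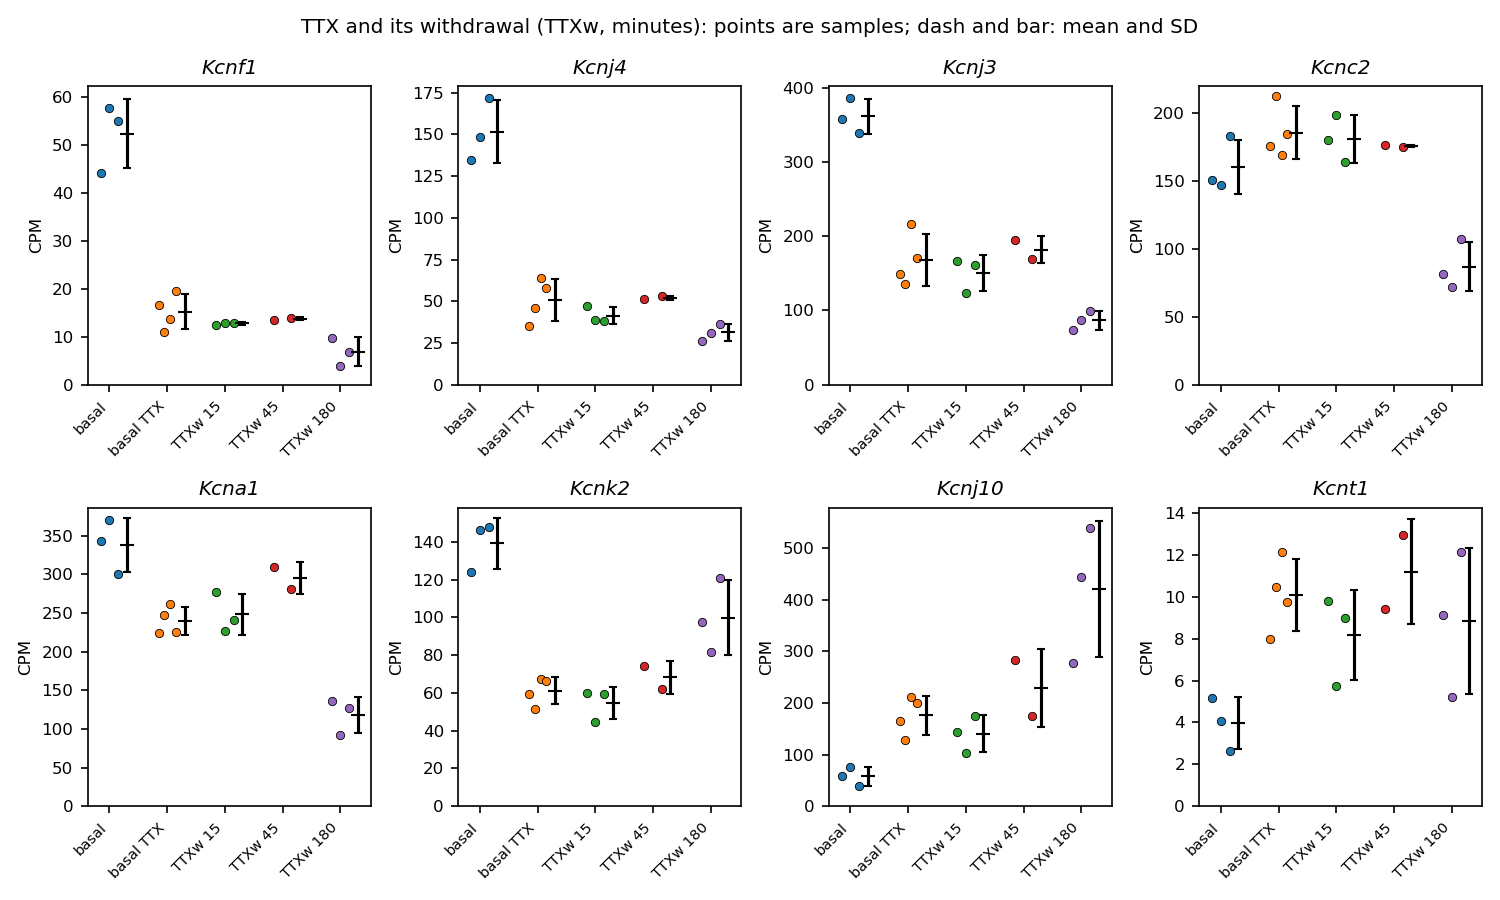
Levels of 8 potassium channel genes (CPM) in basal, basal TTX and TTXw samples at 15, 45 and 180 min of the stimuli experiment, with 1 point per sample and the mean and SD beside them. Kcnf1, Kcnj4 and Kcnj3 lie lower in TTX than in basal samples, Kcnc2 and Kcna1 drop at 180 min after washout, and Kcnj10 is highest at that time.

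**Figure D4:**
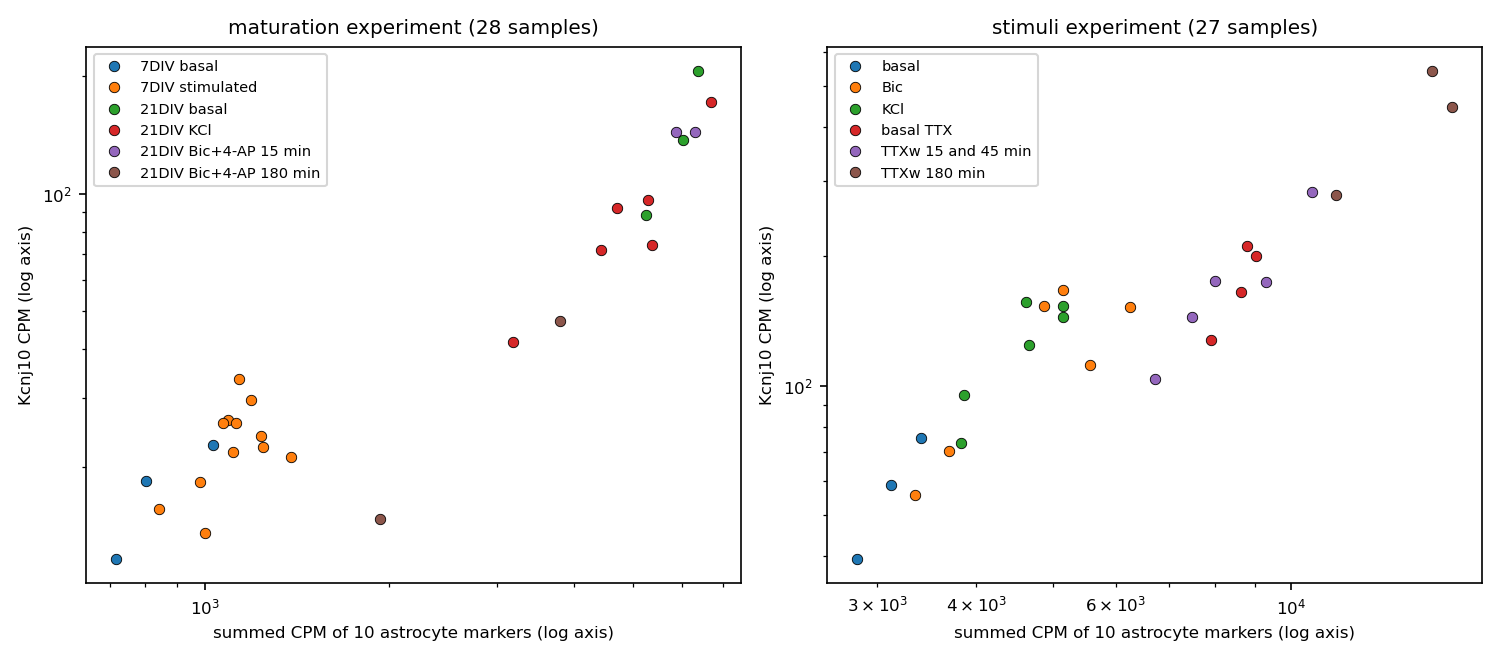
Level of Kcnj10 against the summed level of the 10 astrocyte markers (both CPM, log axes), with 1 point per sample and 1 colour per kind of group, for both experiments. Kcnj10 is low where the astrocyte sum is low, in 7DIV samples, and reaches 540 CPM after washout, where that sum reaches 15968 CPM in another sample.

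**Figure D5:**
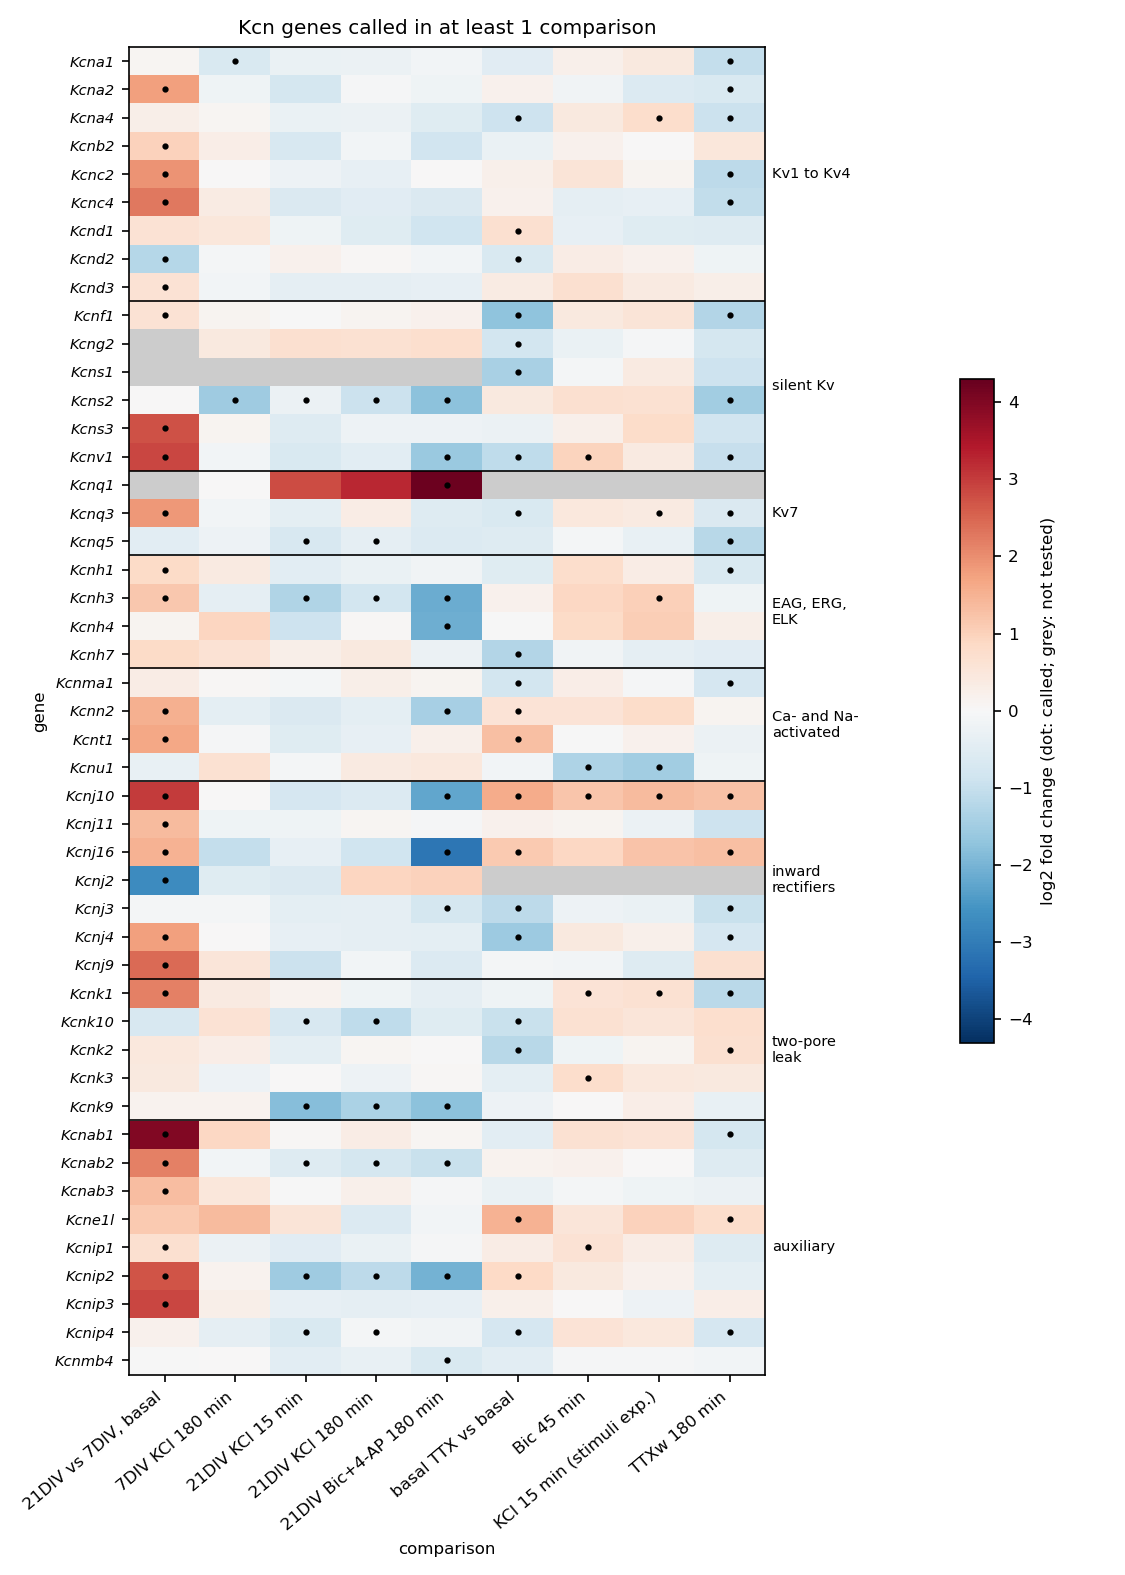
Log2 fold change of 47 potassium channel genes called in at least 1 comparison, by family, in each contrast, with red for higher, blue for lower and grey for not tested, and a dot where the gene was called in that comparison, over its times together. The column of basal 21DIV against 7DIV is mostly red, and those of KCl and Bic + 4-AP in mature cultures of the maturation experiment and of TTXw at 180 min are mostly blue.

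Set across comparisons and leaving the interactions aside, Kcnv1 was called in 5, with log2 fold changes of 2.87 with maturation, -1.58 with Bic + 4-AP, 0.96 with Bic alone, -1.08 in TTX and -0.97 after washout. Kcnj10 rose with maturation, Bic, KCl in the stimuli experiment, TTX and washout, and fell with Bic + 4-AP in mature cultures. Kcna1, the most abundant Kcn gene in both stages of the maturation experiment, was called at 180 min of KCl at 7DIV and after TTX washout.

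The 13 genes tested and called in no comparison included Kcna6, Kcnc1, Kcnh2, Kcnh6, Kcnj6, Kcnj12, Kcnk4, Kcnk13, Kcnmb2, Kcnn3 and Kcnt2. Of these, Kcnh6 passed at a single time but not over the times together, and Kcnj6 is the GIRK2 subunit of G-protein-gated rectifiers. The 3′ ends of 19 Kcn genes overlap a gene on the opposite strand and that of Kcnk4 a gene on the same strand. Whether the counting used strand is not given in the sources used here, so reads of Kcnh3 and Mcrs1, of Kcnk1 and Gm45875, of Kcnn2 and A330093E20Rik, of Kcnh7 and Gca, of Kcnh1 and Hhat, of Kcnip4 and 5730480H06Rik, of Kcnab3 and Kcnab3os, of Kcnmb4 and Kcnmb4os1, and of Kcnip1 and Kcnmb1 may not be told apart, and the values of these genes are uncertain to that extent.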

How the data were processed

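RNA was measured by CEL-Seq2. Per the study's methods, the authors aligned reads to mm10 with STAR, and the deposited tables hold raw counts per RefSeq transcript. How molecular identifiers and strand were treated is not given in the sources used here. Transcripts were matched by accession to RefSeq (GRCm38.p6), which matched 80.8% of 97700 and 80.9% of 96722 transcripts. Transcripts without a match took 18.5% and 19.2% of counts. The transcript with the most counts stood for its gene.

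Each experiment was fitted separately in edgeR 4.0.16 (R 4.3.3) with TMM scaling, 1 group per condition, and a quasi-likelihood F test over all genes above 5 CPM in at least 2 samples, with Benjamini-Hochberg adjustment over all genes tested. The basal comparison of stages used its 6 samples alone. Times of a stimulus were tested together. A gene was called if it changed 1.5-fold or more at 1 or more times with an adjusted p below 0.05, and interactions at an adjusted p under 0.05. In comparisons with a baseline, the 4 called genes with the largest rise and the 4 with the largest fall have values per sample. These cover the baseline group and the time of the largest change, and other times only in part. A fixed list of channel genes is given by fold change. DESeq2 1.42.0 was an alternative. The code was tested on simulated data. Replicates differed by more than counting noise (chi-square per degree of freedom 2.08 to 18.0 over 48 pairs), so each was kept as its own sample. The genes, lists and tests were chosen with earlier results of these data known. Results of some genes are not reported here.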

Additional observations from a re-analysis of the deposited data

Results flagged for a closer look

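The response to KCl at 15 min differed between 21DIV and 7DIV cultures, by the interaction test, for Kcnip2 (difference of log2 fold changes -2.26, adjusted p = 0.0145), Kcnk9 (-2.11, adjusted p = 0.0214) and Kcnh3 (-1.56, adjusted p = 0.0418). The response to Bic + 4-AP at 180 min differed between the stages for Kcnj10 (-2.62, adjusted p = 0.0226), Kcnip2 (-2.0005, adjusted p = 0.0176), Kcnn2 (-1.88, adjusted p = 0.0261), Kcnh3 (-1.82, adjusted p = 0.0157), Kcnv1 (-1.53, adjusted p = 0.00713) and Kcns2 (-1.47, adjusted p = 0.0188). Each value is the log2 fold change at 21DIV minus that at 7DIV, so in each case the log2 fold change was more negative in the mature cultures. Without the 21DIV Bic + 4-AP 180 min replicate 2, 0 of the 6 for Bic + 4-AP were called, and Kcnh3 with KCl passed in 6 of the 18 fits that left out 1 sample.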

How the results depend on the processing

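No result reversed its direction under any alternative run. When 1 sample was left out, the number of called Kcn genes ranged from 22 to 28 between the stages (28 with all samples), 17 to 21 in TTX (22), 12 to 21 for TTXw (21), 4 to 8 for Bic alone (6), 1 to 6 for KCl in the stimuli experiment (6), 5 to 10 for KCl (9) and 5 to 16 for Bic + 4-AP (14) at 21DIV, 1 to 2 for KCl at 7DIV (2), 1 to 6 for the interaction with KCl (4) and 0 to 7 for that with Bic + 4-AP (6). It stayed at 0 for Bic + 4-AP at 7DIV and for Bic against KCl. Where an arm was left with 1 sample, that sample was assumed to vary like the other groups. Dropping the low-count filter gave 14 calls for KCl at 21DIV, 8 for its interaction and 1 for Bic + 4-AP at 7DIV. With counts summed over transcripts there were 1 for KCl at 7DIV, 2 for the interaction with KCl and 3 for KCl in the stimuli experiment. With only the compared groups in the fit there were 1 for KCl at 7DIV, 5 for KCl at 21DIV, 1 for its interaction, 11 for Bic alone and 1 for Bic against KCl at 180 min. The alternatives for Bic against KCl were chosen after seeing the data. The deviations of samples with the same replicate number had a median r of 0.0004 in the maturation and 0.007 in the stimuli experiment. For samples with other numbers it was -0.001 and -0.003. These values gave no sign of pairing by number, though they cannot exclude it. With a replicate block, the calls went to 1 for the interaction with KCl and to 2 for KCl in the stimuli experiment. DESeq2 and RLE size factors moved no count by over 1.5 times. The cause of these shifts was not tested. Of the named values, 48 of 51 kept their call under DESeq2, 49 of 51 with RLE size factors, 50 of 51 without the filter, 37 of 49 with summed transcripts and 37 of 51 with the block. Another scaling shifted the median of all genes by at most 0.033 (log2). Groups of 2 or 3 samples limit the precision, and Kcnq1, Kcnh4, Kcns1 and Kcnu1 rest on low counts.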

Other observations

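Among genes of potassium handling outside the Kcn family, few were called with stimulation. The share of all genes called stands beside each count, and whether these genes changed more often than others was not tested. Of 23 partners tested, 3 were called with Bic + 4-AP in mature cultures (12.3% of all genes called): it raised Hcn3 (log2 fold change 1.36) and Lgi2 (0.60) and lowered Cntnap2, which clusters Kv1 channels along the axon, by 0.69. For KCl, 0 were called by edgeR's quasi-likelihood test at 21DIV in the maturation experiment (5 at an unadjusted p under 0.05, and 7.65% of all genes called), while Slc12a2, 1 of 23, fell by 0.74 at 7DIV (2.29% of all genes). The interaction between stages was called for 1 of 23 with each stimulus, Slc12a5 with KCl (-1.12, with 2.06% of all genes called) and Hcn3 with Bic + 4-AP (1.27, with 4.17%). In the stimuli experiment, where 24 were tested, 2 were called with Bic and 3 with KCl (6.63% and 6.04% of all genes). Of these, Hcn3 fell with Bic and with KCl (-0.98 and -1.06) and Hcn2 fell with KCl (-0.97). These stimuli share the basal samples.

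After TTX washout 1 of 24 partners was higher, Slc12a2 (0.74), where 13.2% of all genes were called, 6.78% as higher and 6.45% as lower, and 6 were lower, among them Lgi2 (-1.30), the potassium-dependent sodium-calcium exchanger Slc24a2 (-1.16), Lgi1 (-1.03), Dpp10 (-0.67) and Atp1b1 (-0.60).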
